A study of Homo sapiens with 12 samples.

Results

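A set of 10 secreted or lipid-signalling genes of the inflammatory response was followed by every array probe that the probe table lists under their symbols, namely the interleukins IL1A, IL1B, IL6 and IL24, the IL6-family cytokine LIF, the chemokines CXCL8, CCL2, CXCL1 and CXCL2, and the prostaglandin synthase gene PTGS2. The table lists 10 probes for 9 of these 10 genes, out of 47230 probes on the array, and no probe under the symbol CXCL1. Of the 10 probes, 9 probes for 8 genes were detected on at least 2 arrays and entered the tests beside 24325 probes in all. PTGS2 is the only one of the 9 genes with more than 1 probe.

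The cells were WM35, an established human melanoma line, and RNA was measured on 12 Illumina 1-colour arrays. The labels give 2 control arrays of cells in the vehicle DMSO, with no time on their labels. Of cells in trifluridine (TFT), an analog of thymidine that DNA polymerases build into DNA, there were 3 arrays at 8 h and 2 at 24 h. Lactimidomycin (LTM), which stops ribosomes during elongation, likewise had 3 arrays at 8 h and 2 at 24 h. Both drugs were given at a concentration causing 75% inhibition, found beforehand at 72 h. All groups were grown in the same way, all comparisons with control share the same 2 control arrays, and the labels do not state that replicates were grown separately. The p-values therefore reflect the spread of these arrays alone, which may be technical. The study sought expression signatures of the 2 drugs, and the time points allow a rise at 8 h that is over by 24 h to be told from one still present at 24 h.

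These genes belong to an early response of many cell types to stress, infection and tissue damage. Interleukin 1 alpha and beta act through the same receptor, whose signal activates the transcription factors NF-kB and AP-1. These factors, together with C/EBP proteins, induce IL6, CXCL8, CCL2 and PTGS2. Their mRNAs carry AU-rich elements that shorten their life, and inhibitors of translation are known to prolong the life of such mRNAs and to raise the transcription of immediate early genes, a behaviour called superinduction. In melanoma, CXCL8 and IL6 are well known secreted factors, and IL24 was first isolated from melanoma cells induced to differentiate.

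The sequences just upstream of the transcription starts are shown for 6 members that stand for the patterns described below: IL1A, IL6 and IL24, which were still high at 24 h of LTM, IL1B and CXCL8, which were not, and PTGS2, which on 9 of the arrays was at control level at 8 h and high at 24 h. Each is the 150 bases before the start in the RefSeq table of GRCh38.p14, read on the strand of the gene, and capitals mark matches to the motifs searched.
IL1A, chr2:112784494-112784643, minus strand: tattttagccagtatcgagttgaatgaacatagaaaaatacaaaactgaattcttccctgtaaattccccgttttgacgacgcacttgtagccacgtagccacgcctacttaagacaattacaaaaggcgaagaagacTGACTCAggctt
IL6, chr7:22727050-22727199, plus strand: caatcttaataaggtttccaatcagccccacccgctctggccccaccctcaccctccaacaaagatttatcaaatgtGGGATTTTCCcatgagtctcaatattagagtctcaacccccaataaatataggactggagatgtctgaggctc
IL24, chr1:206897293-206897442, plus strand: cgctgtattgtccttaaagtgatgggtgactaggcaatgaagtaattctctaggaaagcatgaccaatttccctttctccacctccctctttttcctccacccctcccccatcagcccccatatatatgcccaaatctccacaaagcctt
IL1B, chr2:112836780-112836929, minus strand: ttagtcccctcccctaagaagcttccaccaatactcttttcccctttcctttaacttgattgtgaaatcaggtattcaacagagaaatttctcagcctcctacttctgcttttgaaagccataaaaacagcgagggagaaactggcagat
CXCL8, chr4:73740419-73740568, plus strand: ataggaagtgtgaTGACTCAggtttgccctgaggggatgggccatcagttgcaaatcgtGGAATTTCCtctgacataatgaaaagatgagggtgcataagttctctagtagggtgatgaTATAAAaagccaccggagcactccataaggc
PTGS2, chr1:186680424-186680573, minus strand: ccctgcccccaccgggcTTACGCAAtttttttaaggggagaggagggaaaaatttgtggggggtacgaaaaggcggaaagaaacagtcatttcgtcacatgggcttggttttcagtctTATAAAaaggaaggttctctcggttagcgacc
The motifs were the NF-kB consensus, its short form GGANTTTCC, which overlaps the consensus, the AP-1 site TGANTCA, the cAMP response element TGACGTCA, the C/EBP form TTGCNNAA and the TATA box TATAAA, each on both strands of the 250 bases before the start. The table held 8 of the 10 genes, all but CCL2 and LIF. The short NF-kB form was in 4 of these 8, IL6, CXCL8, CXCL1 and CXCL2, against 1.45% of all 35116 promoters in the table. The full consensus was in 3 of 8 against 9.96% of all, the C/EBP form in 4 of 8 against 9.05%, the AP-1 site in 2 of 8 against 6.57%, the TATA box in 3 of 8 against 10.7%, and the cAMP response element in 0 of 8 against 1.65%. The window of IL24 held no match, and that of IL1B held a C/EBP match only, upstream of the bases printed. Also upstream of them were a C/EBP match of IL6, at -155 to -148, and the TATAAA of IL1A, at -239 to -234. IL1A has 2 starts in the table, of which the first is shown. The window of the other held 2 AP-1 matches, and the match farther from that start is the same site as the match marked above. CXCL1 and CXCL2 are close paralogs whose promoters share long stretches, so their matches are not separate observations. A match is a description of these letters, not a bound site. IL1A and IL1B are neighbours on chromosome 2 with 0 protein-coding genes between them in that table, yet their probes followed different time courses, as described below.

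Over all probes, 3 arrays had profiles unlike those of their labels. With the mean of each of the 24325 probes subtracted, the array labelled TFT 8 h replicate 3 had r = -0.49 with each other array of its label, but 0.73 with LTM 8 h replicate 2 and 0.70 with replicate 3. For the array labelled LTM 8 h replicate 1, r was -0.46 and -0.39 within its label, and 0.75 against TFT 24 h replicate 2. For the array labelled TFT 24 h replicate 1, it was 0.44 within its label and 0.66 against both TFT 8 h replicates 1 and 2. Arrays of the same label among the other 9 arrays correlated at 0.68 to 0.91. The distances over the 9 inflammatory probes were also shorter to another label than to their own. The array labelled TFT 8 h replicate 3 differed by a mean of 0.12 on the log2 scale from the LTM 8 h arrays and by 1.66 from those of its own label, and it was nearest to LTM 8 h on 8 of 9 probes. The corresponding means were 0.10 to TFT 8 h against 0.71 to its own label for the array labelled TFT 24 h replicate 1, and 0.11 to TFT 24 h against 1.54 to its own label for the array labelled LTM 8 h replicate 1. Probe by probe the TFT 24 h array was nearest to TFT 8 h on 6 of 9. The LTM 8 h array was nearest to TFT 24 h on 4 of 9, with 2 nearest to LTM 24 h, 2 to TFT 8 h and 1 to control. Values are therefore given for the groups as labelled (12 arrays) and again without these 3 arrays (9 arrays). The p-values on 9 arrays do not allow for that choice, and the TFT 24 h group then holds 1 array, assumed to vary like the others.

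Detection and spread differed between the members. The probes for IL1A, IL1B, CXCL8, CCL2, LIF and IL24 and the PTGS2 probe ILMN_2054297 were detected, at a detection p under 0.05, on 12 of 12 arrays. IL6 (ILMN_1699651) was detected on 5 of 12 arrays, which were the array labelled TFT 8 h replicate 3, LTM 8 h replicates 2 and 3, and both LTM 24 h arrays. The second PTGS2 probe, ILMN_1677511, was also detected on 5 of 12 arrays and on neither control. Both probes entered the tests only through drug-treated arrays, on which they were high, so counts over the 9 probes describe those that entered. CXCL2 (ILMN_1682636) was detected on 1 of 12 arrays, LTM 24 h replicate 1, did not enter the tests, and lay between 4.44 and 5.16 on the log2 scale over all arrays. By the range of log2 intensity over the 12 arrays, CCL2 (4.85) ranked 12th, IL24 (4.31) 30th and LIF (3.67) 89th of the 24325 probes, while CXCL8 (1.50) ranked 5549th.

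**Figure D1:**
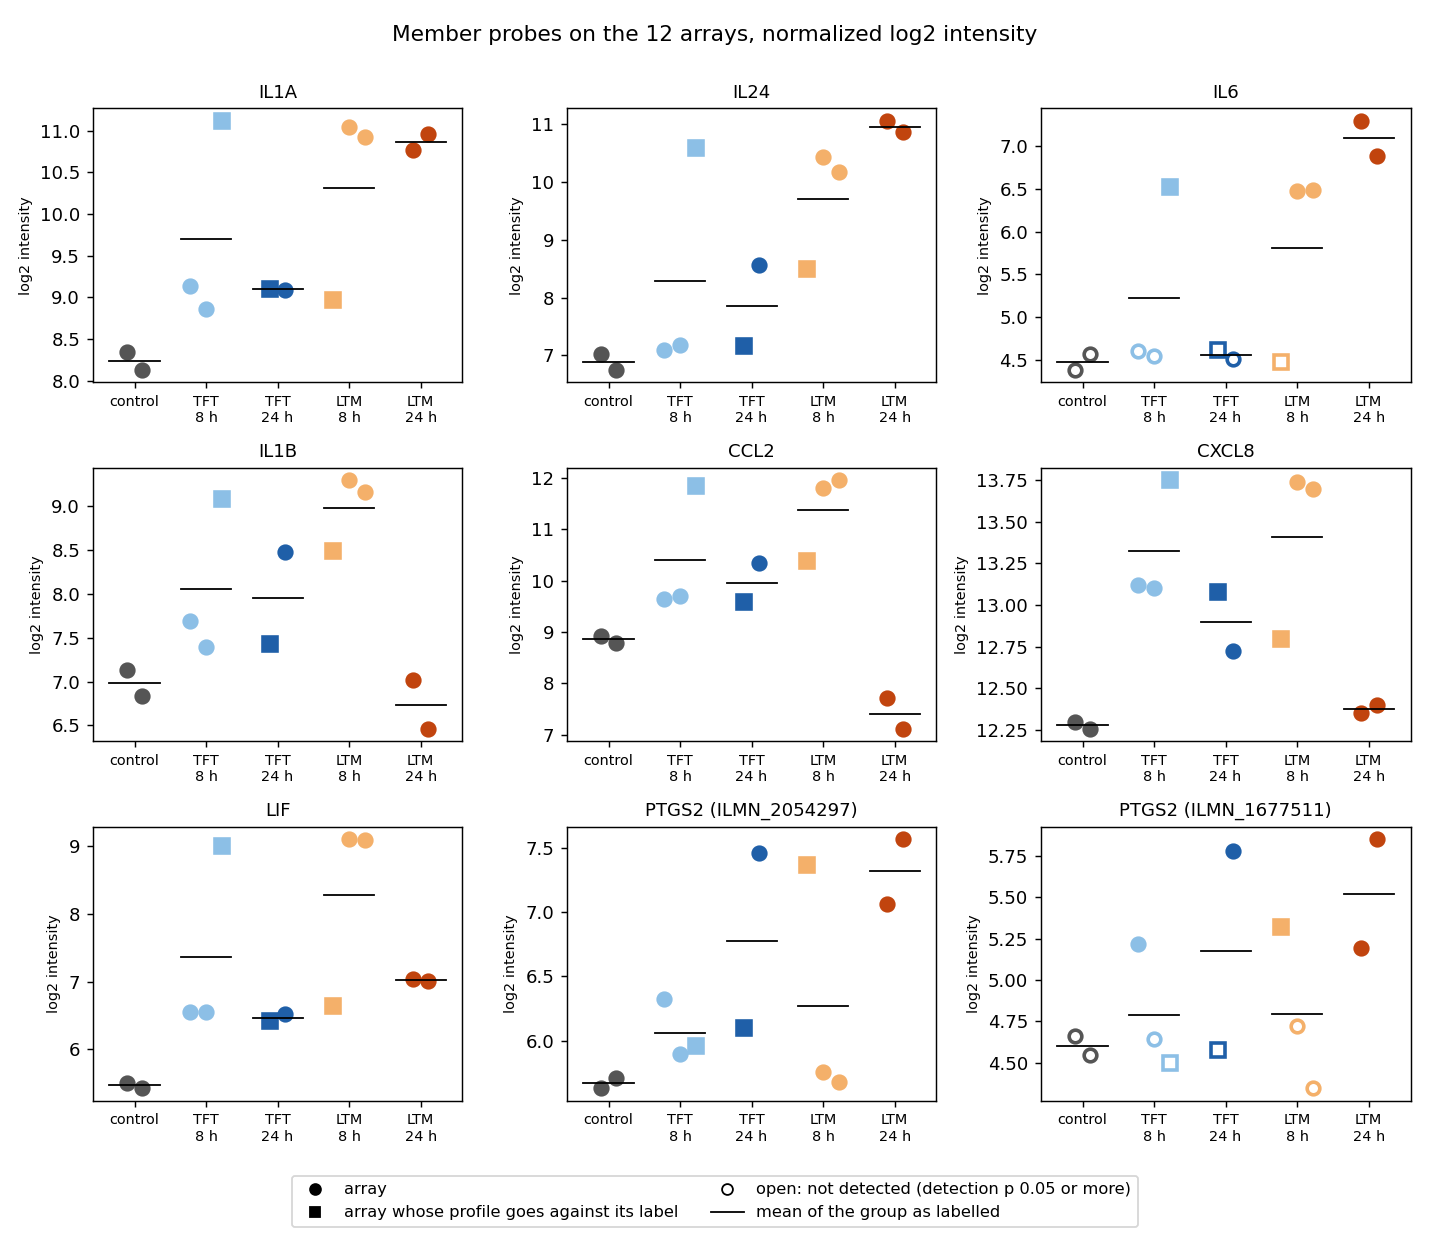
Normalized log2 intensity of the 9 inflammatory probes on each of the 12 arrays, by labelled group, with a line at the mean of the group as labelled. Squares are the 3 arrays whose profiles go against their labels and open symbols are arrays on which the probe was not detected; IL1A, IL24 and IL6 are high on the LTM 24 h arrays, where IL1B, CCL2 and CXCL8 are near or below control.

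LTM for 24 h is the comparison that none of the 3 arrays enters, so its fold changes are the same on 12 and on 9 arrays, although its SEs are not. IL24, IL1A, IL6 and PTGS2 were higher than control: 4 of the 9 probes were called higher on 12 arrays (limma, adjusted p under 0.05, Benjamini-Hochberg over 24325 probes), where 20.0% of all probes were, and 0 were called lower, where 20.9% were. On 9 arrays 6 were called higher and 1, CCL2, lower, against 26.1% and 28.2% of all probes. The members' counts are to be read against an array on which a large part of all probes was called. IL6 and the PTGS2 probe ILMN_1677511 were undetected in both controls, which left them no room for a lower call. The median change of the 9 probes was 1.55 on the log2 scale, and that of all probes was -0.05. The median SE of the 9 probes was 0.69 on 12 arrays and 0.16 on 9, while that of all probes was 0.22 and 0.15. Without control replicate 1, control replicate 2 or LTM 24 h replicate 1 the count on 12 arrays fell from 4 to 1, and without LTM 24 h replicate 2 to 2. IL24 was called in each of the 12 fits that left out 1 array, IL6 in 9, and IL1A and PTGS2 (ILMN_2054297) in 8. With no filter on dim probes PTGS2 was not called (adjusted p = 0.0794).

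IL24, a cytokine of the IL10 family, had the largest change of the 9 probes in this comparison. Its log2 intensity was 7.02 and 6.75 on the control arrays, 10.43 and 10.17 on LTM 8 h replicates 2 and 3, 8.50 on the one labelled LTM 8 h replicate 1, and 11.06 and 10.86 on the LTM 24 h arrays. Every LTM array was above both controls, and the LTM 24 h arrays were the highest of the 12. At 24 h the mean was 10.96 ± 0.14 (SD, n = 2) against 6.89 ± 0.19 (n = 2), a 16.8-fold difference (log2 4.07, SE 1.01, adjusted p = 0.00768 by limma). At 8 h the difference was 2.81 (SE 0.92, adjusted p = 0.222) on 12 arrays and 3.41 (SE 0.15, adjusted p = 1.61e-06) on 9. From 8 h to 24 h it rose by 0.66 (SE 0.15, adjusted p = 0.00582) on 9 arrays, and on 12 arrays the difference of 1.26 (SE 0.92) had an adjusted p of 0.339.

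IL1A, the interleukin that is active already as a precursor and is released from damaged cells, was high at both times. It read 8.34 and 8.13 in the controls, 11.04 and 10.92 on LTM 8 h replicates 2 and 3, 8.97 on the one labelled LTM 8 h replicate 1, and 10.77 and 10.96 at 24 h. The LTM 8 h arrays 2 and 3 and the LTM 24 h arrays covered overlapping ranges, all well above the controls. At 24 h the difference from control was 6.18-fold (log2 2.63, SE 0.73, adjusted p = 0.0137, limma, 12 arrays). At 8 h it was 2.08 (SE 0.66, adjusted p = 0.217) on 12 arrays and 2.75 (SE 0.15, adjusted p = 3.74e-06) on 9. Between 8 h and 24 h the change was 0.55 (SE 0.66, adjusted p = 0.581) on 12 arrays, and on 9 arrays -0.12 with a 95% confidence interval from -0.46 to 0.22.

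IL6, which signals through a receptor subunit shared with LIF, went from undetected to detected. It read 4.39 and 4.58 in the controls, 6.47 and 6.49 on LTM 8 h replicates 2 and 3, 4.47 on the one labelled LTM 8 h replicate 1, and 7.29 and 6.89 at 24 h. Both LTM 24 h arrays exceeded all 10 others. Since neither control array detected it, the fold at 24 h is a lower bound, at least 4.50-fold (fitted log2 difference 2.61, SE 0.70, adjusted p = 0.0116). At 8 h on 9 arrays it was at least 2.95-fold (adjusted p = 2.34e-05), and on 12 arrays, with 2 of 3 detected, at least 1.85-fold (adjusted p = 0.336). The further rise from 8 h to 24 h was 0.61 (SE 0.16, adjusted p = 0.00976) on 9 arrays and 1.28 (SE 0.64, adjusted p = 0.154) on 12.

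The 8 h comparison of LTM with control gave 0 called probes of 24325, and so 0 members (0%), on the 12 arrays as labelled, where limma's unadjusted p was under 0.05 for 6 of the 9 member probes and for 15.7% of all probes. With trend and robust variance estimation the member count was also 0. On 9 arrays 7 of the 9 probes were called higher, all but the PTGS2 probes, against 14.4% of all probes, and 0 lower, against 15.4%. Leaving out only the array labelled LTM 8 h replicate 1 also gave 7 calls, and leaving out only the array labelled TFT 8 h replicate 3 gave 2, IL1B and CCL2. The shares of all probes called in those fits are not given here, so these counts show only how the calls depend on single arrays.

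From 8 h to 24 h of LTM, CCL2, IL1B and CXCL8 fell. They were the 3 member probes called lower on 12 arrays, against 16.3% of all probes, and 0 were called higher, against 17.1%. On 9 arrays LIF fell as well and IL6, IL24 and both PTGS2 probes rose, giving 4 lower and 4 higher against 21.8% and 21.5% of all probes. The count on 12 arrays was 1 without LTM 24 h replicate 2, 2 without LTM 24 h replicate 1 or LTM 8 h replicate 2 or 3, and 5 without the array labelled LTM 8 h replicate 1. CCL2 was called in each of the 12 fits that left out 1 array, IL1B in 11 and CXCL8 in 8.

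CCL2, the chemokine that attracts monocytes, swung the furthest. It read 8.93 and 8.79 in the controls, 11.81 and 11.96 on LTM 8 h replicates 2 and 3, 10.38 on the one labelled LTM 8 h replicate 1, and 7.71 and 7.11 at 24 h. All LTM 8 h arrays were above both controls and both LTM 24 h arrays below them. From 8 h to 24 h it was 15.7-fold lower (log2 -3.98, SE 0.63, adjusted p = 0.000708) on 12 arrays and 22.3-fold lower (adjusted p = 1e-06) on 9. The 8 h rise was 2.53 (SE 0.63, adjusted p = 0.208) on 12 arrays and 3.03 (SE 0.19, adjusted p = 6.72e-06) on 9. At 24 h it was 2.73-fold lower than control, a difference called on 9 arrays (log2 -1.45, SE 0.19, adjusted p = 8.79e-05) and not on 12 (SE 0.69, adjusted p = 0.117).

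IL1B, which is made as an inactive precursor and cleaved by caspase 1, was high at 8 h and not at 24 h. It read 7.13 and 6.83 in the controls, 9.30 and 9.16 on LTM 8 h replicates 2 and 3, 8.49 on the one labelled LTM 8 h replicate 1, and 7.02 and 6.46 at 24 h. The 24 h arrays overlapped the controls. The fall from 8 h to 24 h was 2.24 (SE 0.47, adjusted p = 0.00341) on 12 arrays and 2.49 (SE 0.20, adjusted p = 1.7e-05) on 9, and without LTM 24 h replicate 2 the adjusted p was 0.0551. The 8 h difference from control was 2.0 (SE 0.47, adjusted p = 0.201) on 12 arrays and 2.25 (adjusted p = 4.48e-05) on 9, and at 24 h it was -0.24 (SE 0.51, adjusted p = 0.749).

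CXCL8, the neutrophil chemokine also called interleukin 8, was bright on every array and moved less. It read 12.30 and 12.26 in the controls, 13.74 and 13.70 on LTM 8 h replicates 2 and 3, 12.80 on the one labelled LTM 8 h replicate 1, and 12.35 and 12.40 at 24 h. The 24 h arrays lay just above the controls, and all LTM 8 h arrays lay above the 24 h arrays. It fell by 1.03 (SE 0.29, adjusted p = 0.0157) from 8 h to 24 h on 12 arrays and by 1.34 (SE 0.12, adjusted p = 2.67e-05) on 9. The 24 h difference from control was 0.10 (SE 0.31, adjusted p = 0.836).

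LIF, which acts through the receptor subunit used by IL6, fell part of the way. It read 5.51 and 5.43 in the controls, 9.10 and 9.09 on LTM 8 h replicates 2 and 3, 6.64 on the one labelled LTM 8 h replicate 1, and 7.04 and 7.01 at 24 h. The 24 h arrays lay between the controls and LTM 8 h replicates 2 and 3, and within the range of the 3 arrays labelled LTM 8 h. On 9 arrays it was 3.63 above control at 8 h (SE 0.12, adjusted p = 8.58e-07) and 1.55 above at 24 h (SE 0.12, adjusted p = 3.92e-06, 2.94-fold), and it fell by 2.07 between them (SE 0.12, adjusted p = 5.14e-06). On 12 arrays none of these was called (adjusted p = 0.208, 0.173 and 0.255).

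PTGS2, the inducible cyclooxygenase that makes the precursor of prostaglandins, was high at 24 h and, on the 9 arrays, not at 8 h. Its probe ILMN_2054297 read 5.63 and 5.71 in the controls, 5.76 and 5.68 on LTM 8 h replicates 2 and 3, 7.37 on the one labelled LTM 8 h replicate 1, and 7.07 and 7.57 at 24 h. LTM 8 h replicates 2 and 3 were at control level and both 24 h arrays were above it. At 24 h the difference from control was 3.13-fold (log2 1.65, SE 0.53, adjusted p = 0.028 on 12 arrays and 4.64e-05 on 9). From 8 h to 24 h this probe rose by 1.60 (SE 0.19, adjusted p = 0.000121) on 9 arrays. On 12 arrays the difference of 1.05 (SE 0.49, adjusted p = 0.124) was not called, and the groups overlapped. The second probe, ILMN_1677511, followed the first over the arrays (r = 0.93 over 12 arrays, a description of 2 probes on the same arrays). It was undetected in both controls and detected on both 24 h arrays, at least 1.52-fold higher (adjusted p = 0.0982 on 12 arrays and 0.00903 on 9).

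**Figure D2:**
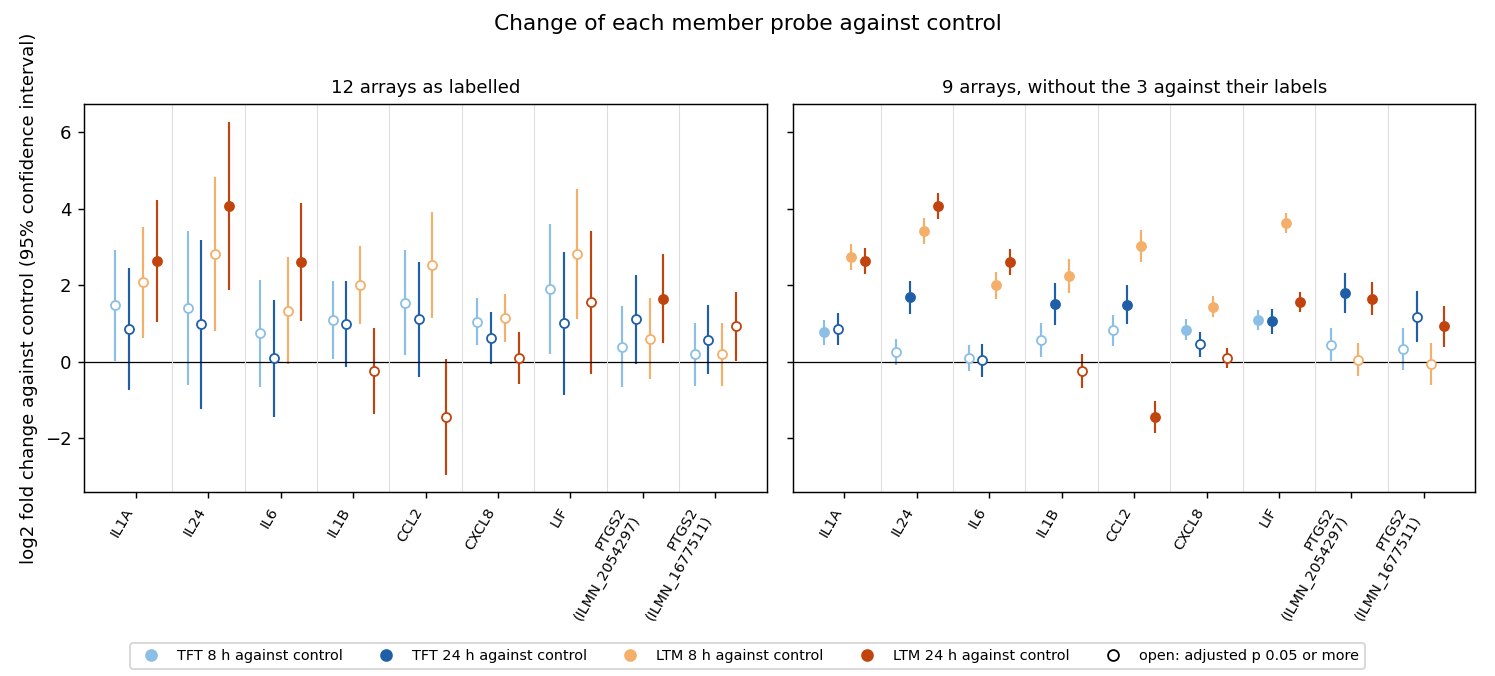
Log2 fold change of each inflammatory probe against control with its 95% confidence interval, on 12 arrays as labelled (left) and on 9 arrays without the 3 that go against their labels (right), open where the adjusted p was 0.05 or more. On the left 4 LTM 24 h points are filled; on the right 7 LTM 8 h and 7 LTM 24 h points are, CCL2 at 24 h lying below 0.

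At TFT 8 h no member passed the test against control on the arrays as labelled. On 12 arrays 0 of 9 probes were called (0% of all probes), with an unadjusted p under 0.05 for 5 of 9 and for 9.04% of all probes, and 0 with trend and robust estimation. One array stood apart within the group: LIF read 6.55, 6.55 and 9.0 on the 3 arrays and IL24 read 7.09, 7.18 and 10.60. The high value is that of the array labelled TFT 8 h replicate 3 for both genes. On 9 arrays IL1A, CXCL8 and LIF were called higher, 3 of 9 against 0.835% of all probes, and 0 lower, against 0.830%. LIF rose by 1.08 (SE 0.12, adjusted p = 0.00483), CXCL8 by 0.83 (SE 0.12, adjusted p = 0.015) and IL1A by 0.76 (SE 0.15, adjusted p = 0.0412), with both TFT arrays above both controls for each. CCL2 was at 9.64 and 9.70 against 8.93 and 8.79, a difference of 0.81 that was not called (SE 0.19, adjusted p = 0.063). IL24 and IL6, which LTM raised, were near control: IL24 differed by 0.25 (adjusted p = 0.439), and IL6 was undetected on both arrays. Without either control array, 0 of the 9 probes were called on the remaining arrays.

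TFT for 24 h rests on 1 array once the array labelled TFT 24 h replicate 1 is left out. On 12 arrays 0 of 9 probes were called (0% of all), and 0 had an unadjusted p under 0.05, against 5.06% of all probes; trend and robust estimation also gave 0. On 9 arrays 5 probes were called higher, IL24, IL1B, CCL2, LIF and the PTGS2 probe ILMN_2054297, against 0.329% of all probes, and 0 lower, against 0.0534%. Without control replicate 1 the count fell to 1 and without control replicate 2 to 0. IL24 read 7.16 on the array labelled replicate 1 and 8.56 on replicate 2, IL1B 7.43 and 8.48, CCL2 9.58 and 10.34, and PTGS2 6.10 and 7.46. On each of these 4 probes replicate 2 was the higher of the pair and close to the array labelled LTM 8 h replicate 1, which read 8.50, 8.49, 10.38 and 7.37. CXCL8 ran the other way, at 13.08 and 12.73. IL6 was undetected on both.

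From 8 h to 24 h of TFT 0 of 9 probes were called on 12 arrays (0% of all), and 0 had an unadjusted p under 0.05, against 2.87% of all probes. On 9 arrays IL24 (1.43, SE 0.19, adjusted p = 0.0201) and PTGS2 by ILMN_2054297 (1.35, SE 0.23, adjusted p = 0.0394) rose, 2 of 9 against 0.448% of all probes, with 0 lower against 0.160%, and the sign for IL24 was opposite on 12 arrays (-0.43, SE 0.92, adjusted p = 0.96). CCL2, IL1B and IL1A also changed sign and were called in neither fit: CCL2 was -0.44 on 12 arrays and 0.67 (SE 0.23, adjusted p = 0.205) on 9, IL1B -0.10 and 0.94 (SE 0.24, adjusted p = 0.115), and IL1A -0.61 and 0.09 (SE 0.19). The LIF difference on 9 arrays was -0.03 (SE 0.15).

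**Figure D3:**
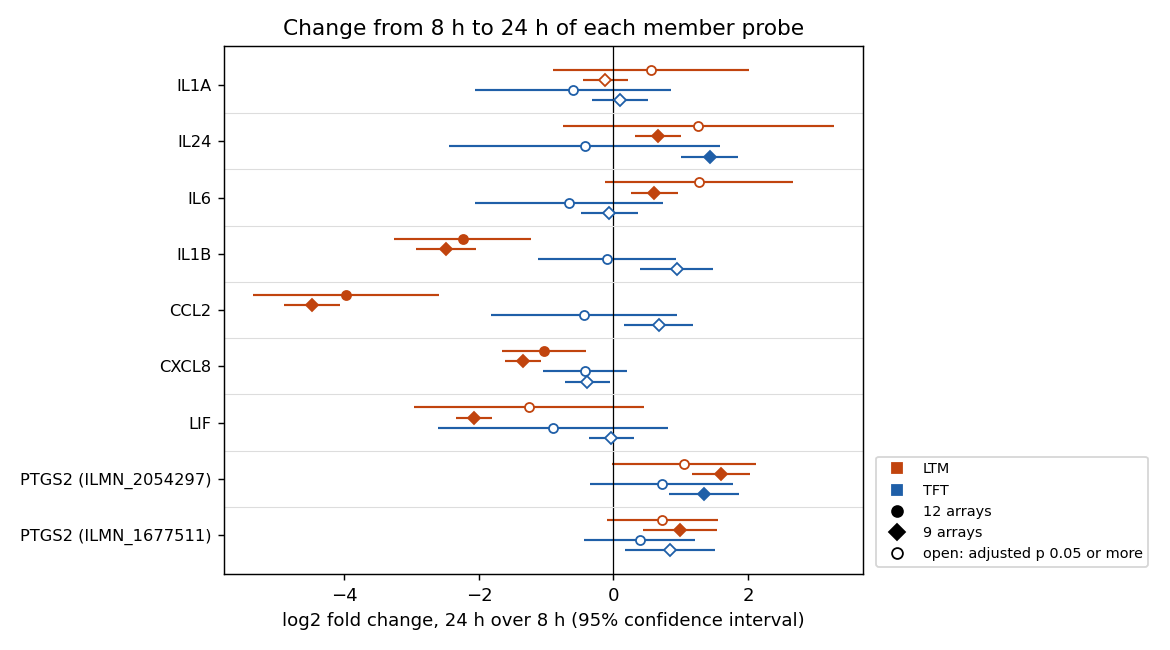
Log2 fold change of each inflammatory probe from 8 h to 24 h for LTM (red) and TFT (blue), on 12 arrays (circles) and 9 arrays (diamonds), with 95% confidence intervals, open where the adjusted p was 0.05 or more. For LTM, CCL2, IL1B and CXCL8 lie below 0 in both fits, with CCL2 at -3.98 and -4.48.

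The difference between the drugs in the change from 8 h to 24 h was tested directly. On 12 arrays CCL2 (-3.54, SE 0.89, adjusted p = 0.0165) and IL1B (-2.15, SE 0.66, adjusted p = 0.0372) were called, 2 of 9 lower against 11.1% of all probes, and 0 were called higher, against 11.4%. Of the 12 fits that left out 1 array, CCL2 was called in 10 and IL1B in 3, and neither was called without TFT 24 h replicate 2 or LTM 24 h replicate 2. The call of IL1B was also lost with an offset of 50 (adjusted p = 0.0537), median scaling (0.0915) and cyclic loess (0.0521), and with no filter on dim probes both were lost. On 9 arrays 5 of 9 were called lower and 0 higher, against 14.2% and 13.8%: CCL2 by -5.15 (SE 0.29, adjusted p = 5.81e-05), IL1B by -3.43 (SE 0.31, adjusted p = 0.000356), LIF by -2.04 (SE 0.19, adjusted p = 0.000374), CXCL8 by -0.95 (SE 0.19, adjusted p = 0.00563) and IL24 by -0.77 (SE 0.24, adjusted p = 0.0395). For IL24 the difference was 1.69 (SE 1.30, adjusted p = 0.392) on 12 arrays, the opposite sign. IL1A also had opposite signs, 1.16 (SE 0.94) on 12 arrays and -0.21 (SE 0.24) on 9, and was called on neither. For IL6 the difference was 1.94 (SE 0.90, adjusted p = 0.149) on 12 arrays and 0.67 (SE 0.25, adjusted p = 0.0702) on 9.

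Over the 12 arrays some members formed sets that the time courses already show. IL1A, IL6 and IL24 correlated with each other at r = 0.94 for each pair, and at 0.94 to 0.96 over the 9 arrays. IL1B correlated with CCL2 at 0.96 and CXCL8 with CCL2 at 0.88. IL1A and IL1B correlated at 0.41, and IL6 with CCL2 at -0.005, or -0.11 over 9 arrays. LIF belonged to neither set alone. Its r was 0.87 with IL1A, 0.75 with IL24 and 0.70 with IL6. With CXCL8 it was 0.84, with IL1B 0.77 and with CCL2 0.69. These coefficients describe probes read on the same arrays, which share drugs, times and the 3 doubtful labels, and carry no test. By the same measure over 12 arrays, the non-member probes most like LIF, IL1A, IL24, CXCL8 and CCL2 were those of FAM133CP (0.994), GCC1 (0.991), ZFAS1 (0.990), RNF216P1 (0.982) and TLN2 (0.976).

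**Figure D4:**
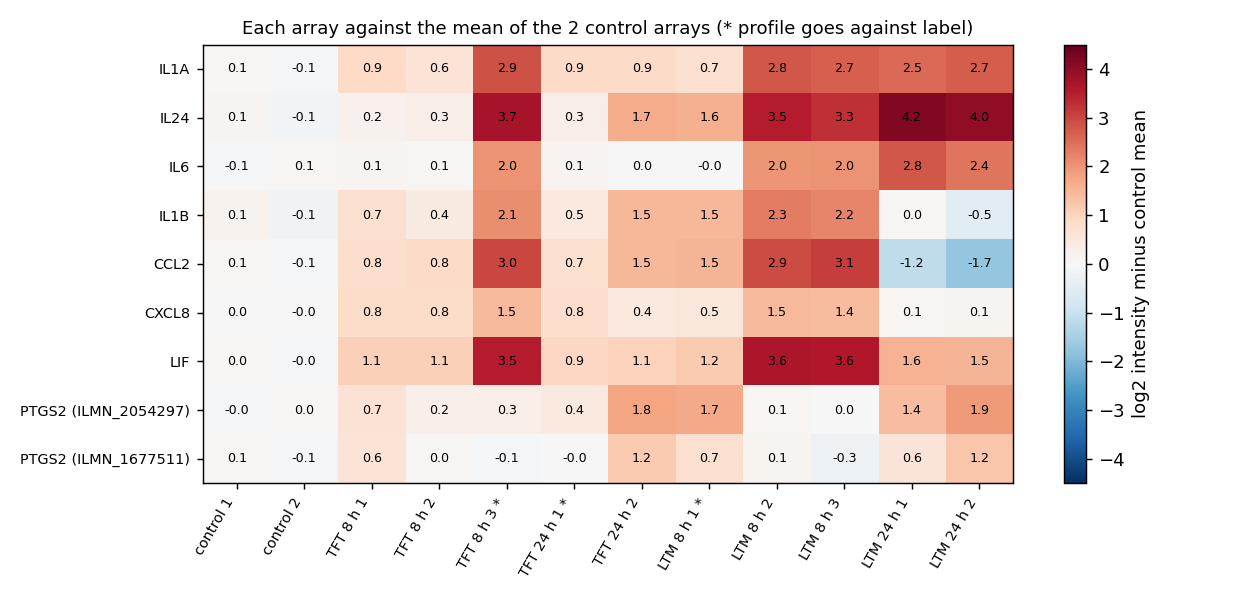
Log2 intensity of each inflammatory probe on each array minus the mean of the 2 control arrays, with the value written in each cell; an asterisk marks the 3 arrays whose profiles go against their labels. The array labelled TFT 8 h replicate 3 shows the pattern of LTM 8 h replicates 2 and 3, and the array labelled LTM 8 h replicate 1 that of TFT 24 h replicate 2.

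Other genes of the same pathways were taken from lists and counted by gene at LTM 24 h against control, on 12 arrays, beside the 20.0% of probes called higher and 20.9% lower. A gene counted if any of its probes was called, so gene counts and shares of probes are unlike measures. Of 28 other cytokine genes 13 had a probe that entered the tests, of which 7 rose and 0 fell. IL34 and OSM, both among the 7, were detected on both LTM 24 h arrays and on no other array. They entered through those arrays, so a lower call was not open to them. IL32, a proinflammatory cytokine, was at least 10.1-fold higher (log2 3.41, SE 0.74, adjusted p = 0.00379) and undetected in controls. IL23A, a subunit of interleukin 23, rose by 1.44 (SE 0.27, adjusted p = 0.00177), the EGF receptor ligand HBEGF by 1.28 (SE 0.34, adjusted p = 0.0112) and lymphotoxin alpha, LTA, by 1.15 (SE 0.22, adjusted p = 0.0018). IL23A was detected on 1 of the 2 control arrays. Of 18 other chemokine genes 6 entered, with 0 higher and 1 lower, the eosinophil chemokine CCL26, which was at least 1.16-fold lower (adjusted p = 0.0136). As a description of the probes that entered, the median change was 0.85 for cytokines and 0.02 for chemokines, against -0.05 for all probes.

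Of 15 other enzyme, transporter and receptor genes of the prostaglandin route 8 entered, of which 3 fell and 1 rose at LTM 24 h. On 9 arrays 3 of the 8 fell and 2 rose, where 28.2% of all probes were called lower and 26.1% higher. The terminal synthase PTGES, which turns the PTGS2 product into prostaglandin E2, fell by 2.23 (SE 0.41, adjusted p = 0.0015), PTGES2 by 1.16 (SE 0.22, adjusted p = 0.00165), and the thromboxane synthase TBXAS1 was at least 1.58-fold lower (adjusted p = 0.00178). The receptor PTGER4 rose by 0.46 (SE 0.16, adjusted p = 0.0432). PTGES fell from 8 h to 24 h as well (-2.28, adjusted p = 0.000856).

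Among 25 genes of receptors and interleukin 1 processing, 15 entered, with 4 higher and 1 lower. IL6ST, the signalling receptor subunit of IL6 and LIF, was at least 4.82-fold higher (log2 2.66, SE 0.38, adjusted p = 0.000404) and the interleukin 33 receptor IL1RL1 at least 4.01-fold higher (adjusted p = 0.000809). TRAF6, an adaptor of interleukin 1 signalling, rose by 1.85 (SE 0.57, adjusted p = 0.0239), and the kinase IRAK1 of the same route fell by 0.98 (SE 0.18, adjusted p = 0.00166). Of 26 regulators of NF-kB, AP-1, C/EBP and mRNA decay all 26 entered, and 15 rose and 3 fell. The largest rises called among them were FOS (4.88, SE 1.25, adjusted p = 0.00913) and ATF3 (4.43, SE 0.72, adjusted p = 0.000773), both transcription factors of the AP-1 and related families, TNFAIP3, which restrains NF-kB (4.30, SE 1.29, adjusted p = 0.0198, detected on 1 of 2 controls), and EGR1 (3.89, SE 0.73, adjusted p = 0.00179). FOS and TNFAIP3 were also high at LTM 8 h on 9 arrays, by 3.61 and 3.86. At LTM 8 h on 9 arrays the lists gave higher calls for 4 of 13 cytokines, 2 of 6 chemokines, 1 of 8 prostaglandin genes, 4 of 15 receptor genes and 16 of 26 regulators, against 14.4% of all probes. Counted by probe, the higher calls were 6 of 22 for receptor genes and 17 of 33 for regulators. Lower calls there were 3 of 8 prostaglandin genes and 2 of 26 regulators, against 15.4%. On 12 arrays no list had a call at LTM 8 h, where 0% of all probes were called.

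The label of a melanoma line was set against its markers, with a gene taken as detected on all arrays if any of its probes was. MITF, SOX10 and EDNRB were so detected on all 12 arrays, while MLANA, TYR, TYRP1 and S100B were detected on none. PMEL was detected on 4 arrays, and the other probes of MITF and EDNRB on 1 or none. Leukocytes are a known source of these cytokines, and the pan-leukocyte marker PTPRC and the T cell marker CD3E were detected on no array, while CD14, CD68, AIF1 and HLA-DRA were detected on all. LYZ was detected on 1 array, the second CD14 probe on none and the second AIF1 probe on 8. The summed linear intensity of the 7 leukocyte genes measured was 1347 to 1398 in controls, 1094 to 1479 at TFT 8 h, 1415 to 1869 at TFT 24 h, 1109 to 1658 at LTM 8 h and 838 to 894 at LTM 24 h. That of the 8 melanocyte genes measured was 3568 to 3666 in controls, 3175 to 3659 at TFT 8 h, 3382 to 3402 at TFT 24 h, 3115 to 3733 at LTM 8 h and 1899 to 1973 at LTM 24 h. These ranges are for the groups as labelled. Those of TFT 8 h, TFT 24 h and LTM 8 h each include an array whose profile goes against its label. Each sum adds the linear intensity of all probes of its genes, so it follows its brightest probes most. In the melanocyte sum that was SOX10 (log2 10.36 to 11.59 over the arrays), and in the leukocyte sum CD68 (ILMN_1714861) and HLA-DRA. The sums are thus no measure of a lineage or cell type as a whole. Both sums were lowest at LTM 24 h, the group in which IL24, IL1A and IL6 were high, and their part in the results above was not tested. The sums of the fibroblast and epithelial genes were 318 to 327 and 527 to 592 in controls and 351 to 370 and 460 to 591 at LTM 24 h. The endothelial markers VWF, CDH5 and KDR, the epithelial CDH1 and the fibroblast COL3A1 were detected on no array. In contrast, the epithelial KRT8 and KRT18 and the fibroblast LUM (ILMN_1790529) were detected on all 12 arrays, and the fibroblast PDGFRB on 9. In such bulk RNA, fewer cells of a type and less RNA per cell cannot be told apart. Per array, 41.3% to 43.5% of the 47230 probes were detected, which is 19485 to 20551 probes.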

How the data were processed

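RNA of 12 WM35 samples, grouped by drug and time as the labels give them, was hybridised to 1-colour arrays. The deposited scanner table holds linear intensity per probe, and the submitters' processing notes name GenomeStudio, whose version is not given in the sources used here. The intensities were already background-subtracted, since 27.3% to 29.3% of an array's values were below 0. Per the file headers, the deposited table also pairs each signal with a detection p-value. A processed table of linear intensity from the authors served as an alternative only, and its normalization is not given in the sources used here.

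Signals were corrected with limma 3.58.1 in R 4.3.3 (neqc, background from the detection p-values, offset 16, quantile normalization, log2). The log2 intensity of probes with a detection p under 0.05 on at least 2 arrays entered 1 fit of 5 group means to the deposited data (lmFit and eBayes, two-sided, 7 residual degrees of freedom on 12 arrays and 4 on 9), adjusted by Benjamini-Hochberg over 24325 probes at 0.05. Every probe was tested alone. Where no array of a group detected a probe, the fold is a lower bound: the dim probe was set on each array to its own signal or, if greater, to the lowest signal detected there, and the bright group's mean was divided by that mean. Probes were named through GEO's platform annotation, in which 27004 probes had 1 gene symbol and 4 had several. The number of arrays limits the precision.

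The members, the gene lists, the tests and the choice of the 9 arrays were made with earlier results of these data known. All members were named, and up to 4 genes of each list with the largest called change at LTM 24 h against control and groups not overlapping. PTGES at 8 h to 24 h, FOS and TNFAIP3 at LTM 8 h, and genes in the closing section were chosen after their values were seen. Replicate numbers did not pair the samples: the deviations of samples with the same number correlated at -0.53 to 0.63, and those with other numbers at -0.76 to 0.66. Alternatives covered the background offset, normalization, filter, variance model, arrays fitted, replicate block, processed table and single arrays.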

Additional observations from a re-analysis of the deposited data

Results flagged for a closer look

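The change from 8 h to 24 h differed between the drugs for CCL2 and IL1B by a direct test (limma, 12 arrays as labelled). The difference, LTM minus TFT, was -3.54 on the log2 scale for CCL2 and -2.15 for IL1B. CCL2 changed by -3.98 under LTM and by -0.44 under TFT, and IL1B by -2.24 and -0.10. On 9 arrays the TFT changes had the opposite sign, 0.67 for CCL2 and 0.94 for IL1B, neither called, and the drug differences were -5.15 and -3.43. Of the 12 fits that left out 1 array, the call held in 10 for CCL2 and in 3 for IL1B, and with no filter on dim probes both calls were lost.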

How the results depend on the processing

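Counts are of the 9 member probes called. Without the 3 arrays the count rose from 4 to 7 at LTM 24 h against control, from 3 to 8 from 8 h to 24 h of LTM, from 0 to 7 at LTM 8 h, from 0 to 3 at TFT 8 h, from 0 to 5 at TFT 24 h, from 0 to 2 from 8 h to 24 h of TFT, and from 2 to 5 for the drug difference. Alternatives on those 9 arrays were chosen after seeing the data, and each gave 7 at LTM 24 h, 8 for the LTM time change, 7 at LTM 8 h and 5 for the drug difference. At TFT 8 h median scaling and the processed table each gave 2, and leaving out either control 0. At TFT 24 h median scaling gave 5, the authors' processed values gave 2, and leaving out control 1 or 2 gave 1 and 0. For the TFT time change median scaling gave 2 and each of the others 1.

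On 12 arrays the drug difference gave 1 with an offset of 50, cyclic loess, median scaling or only the arrays of the groups compared, and 0 without the filter. Only the arrays compared gave 7 at LTM 24 h. With the replicate number as a block, whose pairing the data do not bear out, LTM 24 h gave 6, the LTM time change 5 and the drug difference 3. Leaving out each array in turn gave 1 to 5 at LTM 24 h, 1 to 5 for the LTM time change, 0 to 7 at LTM 8 h, 0 to 2 for the drug difference and 0 to 0 in the TFT comparisons. The processed table, the stricter detection limit, trend and robust estimation and 1 probe per gene left every count as it was. Of the probes called in either fit, IL24 reversed in 2 comparisons without the 3 arrays: the TFT time change became 1.43 (1.59 in the processed table) and the drug difference -0.77 (-0.91 in that table). Signs of uncalled values also turned, for IL1A in the LTM and TFT time changes and the drug difference, for CCL2 and IL1B in the TFT time change, and for the second PTGS2 probe at LTM 8 h (0.19 and -0.07). Median scaling moved the median of all probes at LTM 8 h to -0.13. IL6 and the second PTGS2 probe are near background in the controls, which limits their folds to bounds.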

Other observations

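Other genes of the lists were high at LTM 8 h and lower again at 24 h on the 9 arrays. They were chosen after their values were seen. IL12A, a subunit of interleukin 12, rose by 2.29 at 8 h (adjusted p = 3.68e-06, limma) and fell by 1.11 from 8 h to 24 h (adjusted p = 9e-05). That fall was partial, since IL12A was still 1.18 above control at 24 h (adjusted p = 2.6e-05, limma). CCL20, a chemokine for CCR6-bearing lymphocytes, rose by 1.37 (adjusted p = 0.000582) and fell by 1.18 (adjusted p = 0.000697), with 1 of 2 controls detected. The prostaglandin transporter SLCO2A1 was undetected in the controls and on both LTM 24 h arrays and detected on both LTM 8 h arrays kept, where it was at least 1.97-fold higher than control (adjusted p = 8.36e-05). On 12 arrays none of these 8 h rises was called (adjusted p = 0.208, 0.332 and 0.217). The falls of IL12A and CCL20 from 8 h to 24 h were not called there either (adjusted p = 0.348 and 0.231, limma).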
